A study of Rattus norvegicus with 6 samples.

Results

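Potassium channel genes were taken as every gene of the deposited rat transcript assembly whose name begins with Kcn, without Kcnj11 and Kcnj8. The assembly holds 92 such names in 95 gene models (a gene model is a locus and a gene name), of 24579 models in all. Of these, 62 models with 60 names had at least 10 estimated reads in 3 or more of the 6 libraries, a rule that 16262 models of the assembly met. The libraries come from rat primary beta cells, which make insulin in the pancreatic islets and were purified by fluorescence-activated sorting. Cells of 3 batches were each transfected for 16 h with 30 nM of a negative control siRNA (control, n = 3) or of an siRNA targeting Nova1 (knockdown, n = 3), which encodes a splicing regulator of neurons that binds RNA, and recovered for 48 h. Both groups therefore share the transfection and the culture. The labels name no strain, age or sex of the animals, and nothing says whether a batch was 1 animal or a pool, and p-values measure only how these batches vary.

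Potassium channels let potassium leave the cell and so hold or restore a negative membrane potential. In beta cells, channels that are open at rest keep the cell silent at low glucose, while voltage-gated and calcium-activated channels repolarize each action potential and so limit calcium entry and insulin release. A channel is built from pore-forming subunits, often of mixed identity. Silent subunits make no channel on their own but alter the channels they join, and auxiliary subunits bind to the pore from the membrane or the cytoplasm. Many of these genes are spliced into several forms in neurons, where the Nova proteins are best known. The design asks how the RNA of beta cells, and its splicing, differs when Nova1 is reduced.

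Libraries held between 95394043 and 292432076 assigned reads, and the control was the deeper library of each batch. Nova1 itself was at 20.6, 21.5 and 17.4 CPM (scaled reads relative to library size) in control batches 1, 2 and 3 and at 7.76, 10.2 and 9.43 CPM in knockdown, so it was -1.12 on the log2 scale (SE 0.11, adjusted p = 0.038 in limma). Its adjusted p was 0.14 without batch 1, 0.14 without batch 2 and 1.00 without the batch term. Beta cell markers were abundant, with Ins1 and Ins2 at 20.02% to 21.7% of reads in batches 1 and 3 and at 13.2% and 9.85% in the control and knockdown of batch 2. Batch 2 also held the most Gcg, the glucagon gene of alpha cells, at 12641 and 14249 RPKM (reads relative to both the length of the transcript and the size of the library) against 4728 to 9214 RPKM elsewhere. Summed over 7 matched markers of stellate cells and fibroblasts, control libraries held 6.68 to 14.9 RPKM and knockdown libraries 16.7 to 22.2 RPKM. Of these 7, 3 were higher in knockdown at an unadjusted p below 0.05, 1 was lower and 1 passed the test. Their median log2 fold change was 0.56. Markers of acinar cells, which make digestive enzymes, went the other way. Over 10 matched acinar markers the sums were 418, 295 and 143 RPKM in control batches 1, 2 and 3 and 313, 247 and 106 RPKM in knockdown, with a median log2 fold change of -0.39. Of these 10, 5 were lower in knockdown at an unadjusted p below 0.05, 0 were higher and 1 passed the test. Sums over 8 immune markers were 14.1 to 16.8 RPKM in control and 13.1 to 24.7 RPKM in knockdown. Of these 8, 4 were higher in knockdown at an unadjusted p below 0.05 and 1 was lower. The 2 that passed the test were Lyz2, which was higher (1.43 on the log2 scale), and C1qa, the lower one (-0.47). C1qa alone held 9.65 to 10.6 RPKM in control and 7.04 to 7.95 RPKM in knockdown, so it weighs heavily in the sums. A list of 8 neuron and Schwann cell markers summed to 63.4 to 92.1 RPKM in control and 72.7 to 110.0 RPKM in knockdown, although its members Gfap and Sox10 were under 0.01 RPKM in all libraries. A list of 5 endothelial markers summed to 1.14 to 1.83 and 1.27 to 2.02 RPKM, with Vwf under 0.01 RPKM in all libraries, and neither list had a gene that passed the test. The part of these other cells in the results below was not tested.

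The sequences just before the RefSeq start sites of the 3 potassium channel genes with the smallest unadjusted p between the groups are printed for reference. Which start these cells use was not tested, and the deposited assembly lists transcripts of Kcnk16 and Kcna2 with differing starts. Each is the 250 bases before the start in RefSeq on the assembly GRCr8, 5′ to 3′ on the strand of the gene, with every CG pair in capitals. Kcnk16 encodes a leak channel of the tandem-pore family and its window is chr15:4091441-4091690 on the plus strand. Kcna2 and Kcna6 encode voltage-gated pores of the Shaker family, and their windows are chr2:197393280-197393529 on the plus strand and chr4:161262353-161262602 on the minus strand.
Kcnk16: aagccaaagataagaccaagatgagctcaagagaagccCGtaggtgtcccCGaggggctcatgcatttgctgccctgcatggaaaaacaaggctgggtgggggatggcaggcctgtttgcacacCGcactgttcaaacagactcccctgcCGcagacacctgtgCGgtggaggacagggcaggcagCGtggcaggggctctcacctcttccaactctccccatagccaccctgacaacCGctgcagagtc
Kcna2: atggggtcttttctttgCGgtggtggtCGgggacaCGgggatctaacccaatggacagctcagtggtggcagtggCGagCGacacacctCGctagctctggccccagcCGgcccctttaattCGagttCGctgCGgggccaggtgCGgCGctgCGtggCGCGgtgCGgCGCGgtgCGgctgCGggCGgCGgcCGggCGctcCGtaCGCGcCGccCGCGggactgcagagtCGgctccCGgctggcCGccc
Kcna6: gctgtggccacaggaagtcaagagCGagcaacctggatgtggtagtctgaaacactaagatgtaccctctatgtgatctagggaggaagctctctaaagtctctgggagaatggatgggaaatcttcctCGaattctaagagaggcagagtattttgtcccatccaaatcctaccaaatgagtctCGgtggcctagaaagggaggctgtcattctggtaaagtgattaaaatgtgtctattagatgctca
The Kcna2 window is dense in CG, with 33 pairs, while Kcnk16 has 7 and Kcna6 has 3. RefSeq windows were matched for 40 of the 60 kept names, 45 windows in all, with a median of 11 CG pairs (range 1 to 39) against a median of 5 over 33469 windows of the same length. On either strand the letters TATAAA stood in 4.44% of the channel windows and 12.9% of all windows, CACGTG in 4.44% and 5.59%, and TGACGTCA in 0 and 1.59%. None of these 3 motifs stood in the printed windows, which says only that the letters are not there.

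Beta cells carried RNA for most of the potassium channel families, but a small number of genes held most of it. The 8 highest of the 62 kept models made up 65.2% of their summed control RPKM. In control libraries 9 models averaged at least 10 RPKM, 26 at least 1 RPKM and 10 under 0.1 RPKM. Voltage-gated pores took 34.5% of the summed RPKM of control libraries, tandem-pore channels 28.0%, calcium- or sodium-activated channels with their subunits 16.5%, auxiliary Kv subunits 16.1%, inward rectifiers 4.25% and silent subunits 0.64%. The knockdown shares were 33.2%, 29.8%, 16.5%, 15.7%, 4.15% and 0.58% in the same order. These sums are over the kept models and so leave out Kcnj11 and Kcnj8, both inward rectifiers. Summed over all kept models the level was 249, 304 and 230 RPKM in control batches 1, 2 and 3 and 246, 326 and 259 RPKM in knockdown. The 33 models that were not kept had at most 24 reads in any library, and 7 of them were listed at 0 in all 6, among them Kcna1, the founding Shaker relative of Kcna2, and Kcne3.

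**Figure D1:**
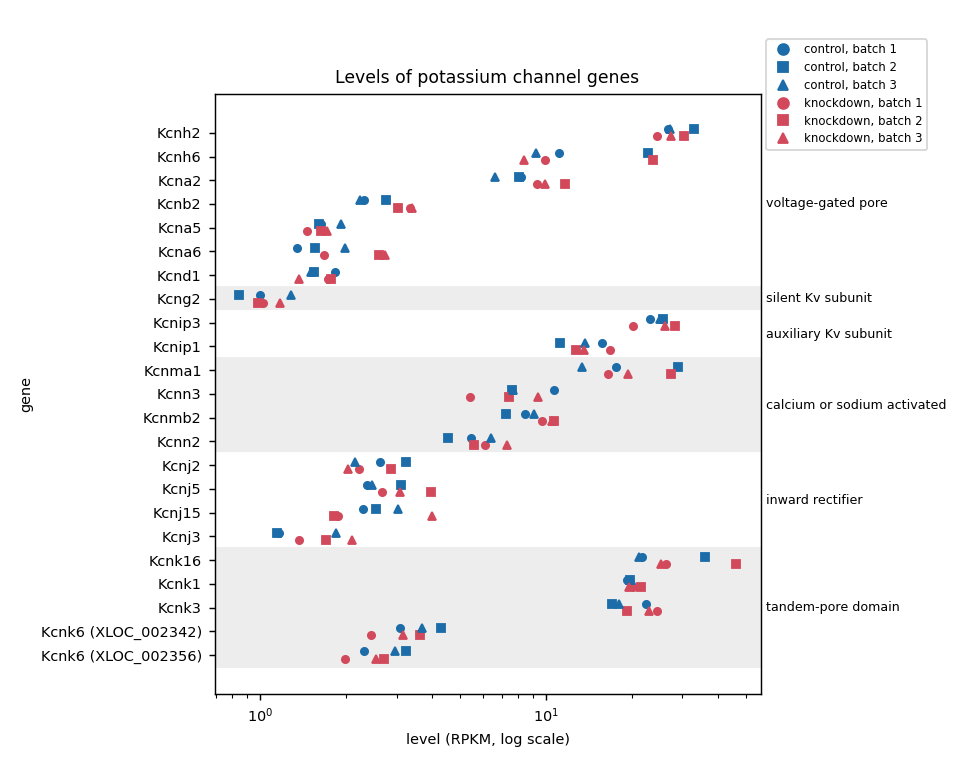
Levels of 23 of the 26 gene models with a control mean of at least 1 RPKM, in RPKM on a log axis, grouped by role. Each point is a library, blue for control and red for knockdown, with its shape giving the batch. Kcnh2, Kcnk16, Kcnip3 and Kcnma1 lie furthest right, and batch 2 (squares) stands apart from the other batches for Kcnh6 and Kcnk16 in both groups.

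No potassium channel gene passed the gene-level test between knockdown and control. Of the 60 models tested (Kcne2 and Kcnh5 were too low), 0 had an adjusted p below 0.05 in limma with batch as a term, where 1.71% of all 15983 genes did. The smallest adjusted p was 0.068. At an unadjusted p below 0.05 there were 16 models, 26.7% of those tested, against a background of 23.9%. Of these, 12 were higher in knockdown and 4 lower, against backgrounds of 12.4% and 11.5% of all genes. The median log2 fold change was 0.03, with 33 values above 0 and 27 below, beside a median of 0.00 over all genes. Within batches 1, 2 and 3 the channel medians were 0.09, 0.04 and 0.15, beside 0.02, -0.01 and 0.00 over all genes. In scaled CPM, all knockdown libraries lay above all controls for 2 models, Kcna2 and Kcne4, where 3.96% of all genes did so, and they lay below for 0, where 4.1% did. The sign was the same in 3 batches for 29 of the 60 (48.3%), against 50.1% of all genes.

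**Figure D2:**
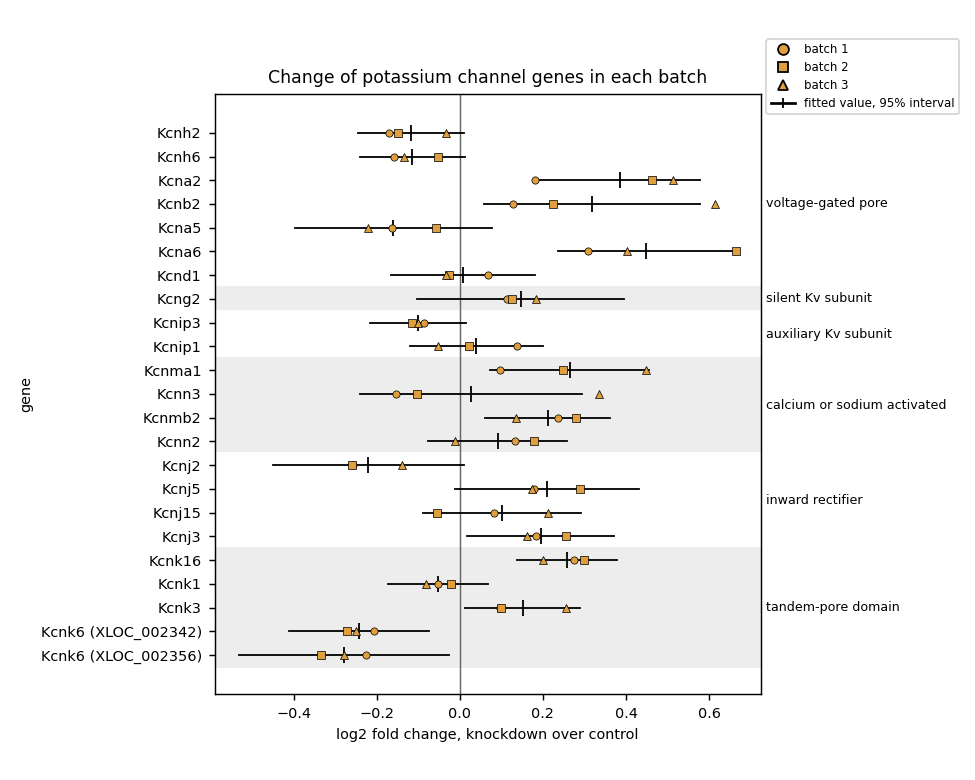
Log2 fold change of knockdown over control for the same 23 gene models. Points give the difference within each batch and the vertical tick and line the fitted value with its 95% interval, not adjusted for the number of genes. Most intervals lie within 0.6 of 0 in either direction. Kcna2, Kcna6 and Kcnk16 lie right of 0 in every batch and both Kcnk6 loci left of 0.

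Among the voltage-gated pores, Kcnh2 had the highest control mean of all the kept potassium channel genes, at 28.9 RPKM. In knockdown its mean of 27.4 RPKM was below that of Kcnk16, at 32.5 RPKM, and Kcnk16 was also the higher of these genes in the control of batch 2. It encodes the ether-a-go-go-related pore that carries a repolarizing current in heart and islet cells, and lies on chromosome 4 at 7366964 to 7398603 of Rnor_5.0. Control libraries of batches 1, 2 and 3 held 26.6, 32.9 and 27.1 RPKM and knockdown libraries 24.4, 30.4 and 27.3 RPKM. The groups overlap, and the log2 fold change was -0.12 (SE 0.05, adjusted p = 0.24 in limma). Kcnh6, a close relative of Kcnh2, was at 11.1, 22.8 and 9.19 RPKM in control and 9.89, 23.7 and 8.39 RPKM in knockdown, so that batch was the larger difference. Its log2 fold change was -0.11 (SE 0.05, adjusted p = 0.24).

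The Shaker relatives Kcna2 and Kcna6, both delayed rectifiers, had the 2 smallest p-values of the voltage-gated pores. Kcna2 (chromosome 2, 229303531 to 229317281) was at 8.17, 8.01 and 6.62 RPKM in control and 9.30, 11.6 and 9.91 RPKM in knockdown. Every knockdown library lay above every control, with a log2 difference of 0.38 (SE 0.08, adjusted p = 0.075). Kcna6 (chromosome 4, 232324385 to 232357644) was at 1.35, 1.56 and 1.98 RPKM and 1.68, 2.61 and 2.73 RPKM. It was higher in knockdown within each batch, by log2 differences of 0.31, 0.66 and 0.40, but the groups overlap. The fitted value was 0.45 (SE 0.08, adjusted p = 0.069), and the adjusted p of both genes stayed above 0.05 under every alternative run.

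Kcnb2, another delayed rectifier pore, was at 2.30, 2.75 and 2.24 RPKM in control and 3.34, 3.05 and 3.39 RPKM in knockdown. In RPKM its groups do not overlap, a separation for which the share of all genes was not counted, while in scaled CPM they overlap. The fitted difference, made from reads, was 0.32 (SE 0.10, adjusted p = 0.16).

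Lower pores of this class included Kcnd1, an A-type channel, with a log2 difference of 0.01 (SE 0.07), and the fast Kv channels Kcnc1 and Kcnc2, at 0.34 (SE 0.21) and -0.01 (SE 0.17). Kcnq1, a pore that partners Kcne subunits and whose human locus is linked to type 2 diabetes, averaged 0.096 RPKM in control, with a difference of -0.06 (SE 0.28). Kcnh3, on chromosome X in the files at 115293665 to 115414776, had a large ratio at a very low level. It was at 0.031, 0.12 and 0.037 RPKM in control and 0.18, 0.34 and 0.071 RPKM in knockdown, with a log2 difference of 1.67 (SE 0.36, adjusted p = 0.084). Its exons overlap Mcrs1 on the opposite strand, and how the authors handled strand is not given in the sources used here, so reads of the 2 genes cannot be told apart. Of the 21 voltage-gated pores tested, 5 were higher and 1 lower at an unadjusted p below 0.05, together 28.6% against the 23.9% of all genes.

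Silent subunits were scarce, and the highest, Kcng2, was at 1.00, 0.84 and 1.28 RPKM in control and 1.03, 0.98 and 1.17 RPKM in knockdown (log2 fold change 0.15, SE 0.10). Kcng3, whose protein joins other Kv pores, was at 0.36, 0.45 and 0.49 RPKM in control and 0.29, 0.43 and 0.34 RPKM in knockdown. It was lower in knockdown in each batch while the groups overlap, at -0.35 (SE 0.11, adjusted p = 0.14). Kcng4 and Kcns3 had differences of 0.21 (SE 0.29) and -0.61 (SE 0.43) at means under 0.2 RPKM.

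Kcnk16 was the second highest of the kept potassium channel genes by its control mean, 26.3 ± 8.46 RPKM (SD, n = 3). It encodes TALK-1, a background channel of the tandem-pore family that is characteristic of beta cells, and lies on chromosome 15 at 8575115 to 8582659. Its levels were 21.7, 36.0 and 21.1 RPKM in control and 26.3, 46.1 and 25.2 RPKM in knockdown. Within batches 1, 2 and 3 knockdown exceeded control by log2 differences of 0.27, 0.30 and 0.20, while batch 2 was high in both groups, so the groups overlap across batches. The fitted value was 0.26 (SE 0.05), with an adjusted p of 0.068, the smallest of all channel genes. With the correction for transcript length it was 0.25 and passed (adjusted p = 0.046). Kcnk5, of the same family and 71919 bp downstream, had too few reads to be kept.

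Kcnk1 and Kcnk3 were the other abundant tandem-pore genes. Kcnk1 (TWIK-1), a weakly rectifying leak channel, had the smallest control SD of the 9 genes at 10 RPKM or more (0.38 RPKM), with levels of 19.1, 19.7 and 19.9 RPKM in control and 20.2, 21.5 and 19.5 RPKM in knockdown. Its log2 fold change was -0.05 (SE 0.05, adjusted p = 0.54) in reads, and with library totals alone the sign turned (0.003). Kcnk3 (TASK-1), an acid-sensitive leak channel, was at 22.4, 17.0 and 18.0 RPKM and 24.4, 19.1 and 22.9 RPKM. It was higher in knockdown in each batch, at 0.15 (SE 0.06, adjusted p = 0.19).

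Kcnk6, a relative of Kcnk1, is listed at 2 loci of chromosome 1, 88345886 to 88355684 and 89344804 to 89352036. The first was at 3.07, 4.30 and 3.68 RPKM in control and 2.45, 3.62 and 3.15 RPKM in knockdown, with a log2 difference of -0.24 (SE 0.07, adjusted p = 0.12). The second gave -0.28 (SE 0.10, adjusted p = 0.18). Because the loci share a name, and reads of near-identical copies can be split between them, they are not separate evidence and each value is uncertain. Kcnk13, named here after its values were seen, was at 0.27, 0.10 and 0.32 RPKM in control and 0.82, 0.31 and 0.41 RPKM in knockdown, a log2 difference of 0.53 (SE 0.16, adjusted p = 0.14). In this role 5 of 8 models had an unadjusted p below 0.05, 3 higher and 2 lower, which is 62.5% against the 23.9% of all genes. The 2 lower are the loci of Kcnk6, which this count takes as separate although they may share reads.

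Calcium-activated channels were led by Kcnma1, the large-conductance BK pore that opens with voltage and calcium, on chromosome 15 at 338304 to 1043585. Exons of Kcnma1 overlap another gene model on the same strand, so its values are uncertain. It was at 17.6, 28.9 and 13.3 RPKM in control and 16.5, 27.3 and 19.4 RPKM in knockdown, overlapping groups. In reads the differences were 0.10, 0.25 and 0.45 in batches 1, 2 and 3, with a fitted value of 0.26 (SE 0.08, adjusted p = 0.13). Kcnmb2, the BK subunit that makes the channel inactivate, was at 8.45, 7.24 and 9.10 RPKM in control and 9.64, 10.7 and 10.5 RPKM in knockdown. In RPKM every knockdown library was above every control, although the fitted difference of 0.21 (SE 0.06, adjusted p = 0.13) did not pass. In scaled CPM the groups of Kcnmb2 overlap. The share of all genes whose groups lie apart in RPKM was not counted. In reads, Kcnma1 and Kcnmb2 both had differences above 0 in each batch, and neither passed the test. In RPKM, Kcnma1 was lower in knockdown in batches 1 and 2 and higher in batch 3.

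Small-conductance channels, opened by calcium through bound calmodulin, had differences near 0. Kcnn3 was at 10.7, 7.60 and 7.64 RPKM in control and 5.42, 7.45 and 9.40 RPKM in knockdown. In batch 1 the reads gave a log2 difference of -0.15, and a short transcript of 2508 bases held 58.2% of the RPKM of the gene in that control and 1.04% in its knockdown. Its fitted value was 0.03 (SE 0.11), and the sign turned with values in RPKM (-0.21 on log2(RPKM + 1)). Kcnn2 was at 5.47, 4.53 and 6.44 RPKM and 6.10, 5.62 and 7.32 RPKM, with a difference of 0.09 (SE 0.07). Exons of Kcnn2 overlap another gene model on the same strand. Kcnn1 at -0.12 (SE 0.21), the intermediate-conductance Kcnn4 at -0.10 (SE 0.37) and the BK subunit Kcnmb1 at -0.01 (SE 0.42) averaged under 1 RPKM, and their signs turned under other settings.

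Auxiliary Kv subunits were dominated by KChIP genes, whose calcium-binding products attach to A-type channels. Kcnip3, also known as DREAM or calsenilin, was at 23.2, 25.7 and 25.0 RPKM in control and 20.2, 28.2 and 26.1 RPKM in knockdown. The groups overlap, with a log2 difference of -0.10 (SE 0.05, adjusted p = 0.25). Kcnip1 was at 15.7, 11.2 and 13.7 RPKM and 16.7, 12.8 and 13.6 RPKM, a difference of 0.04 (SE 0.06). The pores these subunits serve were far lower per length, Kcnd1 at a control mean of 1.63 RPKM and Kcnd2 at 0.19 RPKM.

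Kcnab1 and Kcnab2, cytoplasmic beta subunits of Shaker channels, had differences of -0.23 (SE 0.18) and -0.07 (SE 0.10), and exons of Kcnab2 overlap Nphp4 on the opposite strand. Kcne4, a single-pass membrane subunit, was at 0.32, 0.36 and 0.34 RPKM in control and 0.39, 0.42 and 0.44 RPKM in knockdown. Its groups do not overlap, at a log2 difference of 0.25 (SE 0.13, adjusted p = 0.30). Kcnip2 is listed at 2 loci of chromosome 1, with differences of -0.03 (SE 0.16) and -0.57 (SE 0.38). Kcnrg, chosen after its values were seen, had the widest differences, 2.94, 6.10 and -3.14 in batches 1, 2 and 3, and its exons overlap Trim13 on the same strand.

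Inward rectifiers were low without the genes left out by name. Kcnj2, a strong rectifier, was at 2.63, 3.25 and 2.14 RPKM in control and 2.21, 2.87 and 2.03 RPKM in knockdown. It was lower in knockdown in each batch and the groups overlap, at -0.22 (SE 0.09, adjusted p = 0.22). Kcnj5, Kcnj3 and Kcnj6 encode channels gated by G proteins. Kcnj5 was at 2.37, 3.11 and 2.47 RPKM in control and 2.66, 3.95 and 3.07 RPKM in knockdown, at 0.21 (SE 0.09, adjusted p = 0.22). Kcnj3 gave 0.19 (SE 0.07, adjusted p = 0.18), Kcnj6 -0.02 (SE 0.13) and Kcnj15 0.10 (SE 0.08), with the sign of the last turning on the RPKM scale. Among the 10 inward rectifiers tested, only Kcnj3 had an unadjusted p below 0.05, 10% against the 23.9% of all genes.

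Batch 2 stood apart from the other batches in both groups for many of these genes, as it did for genes in general. Both libraries of batch 2 lay above the other 4 for 20 of the 60 models, a share close to the 30.5% of all genes. They lay below them for 9 of the 60, a smaller share than the 27.9% of all genes. Voltage-gated pores made up 9 of the 20 and none of the 9. Kcnj9, a G-protein-gated rectifier, exceeded the mean of batches 1 and 3 by 2.21 on the log2 CPM scale among controls and by 2.08 among knockdowns. Kcnk2, a stretch-sensitive leak channel, did so by 1.17 and 1.13, and Kcnh6 by 1.00 and 1.09. Low in batch 2 were Kcnk13, by -1.88 and -1.37, Kcnip1, by -0.51 and -0.53, and Kcnk3, by -0.50 and -0.57. Batch 2 was also the batch with the most Gcg and the smallest share of insulin reads. Over 6 alpha cell markers the sums were 4739, 12661 and 7096 RPKM in control batches 1, 2 and 3 and 6479, 14274 and 9229 RPKM in knockdown. Within each batch the knockdown sum was thus the higher. At an unadjusted p below 0.05, 3 of the 6 were higher in knockdown and 0 lower. Their median log2 fold change was 0.21, and 0 of 6 passed the test. The part of the cell mixture in the differences between batches and between groups was not tested. In bulk libraries, fewer cells of a type and less RNA per cell cannot be told apart.

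**Figure D3:**
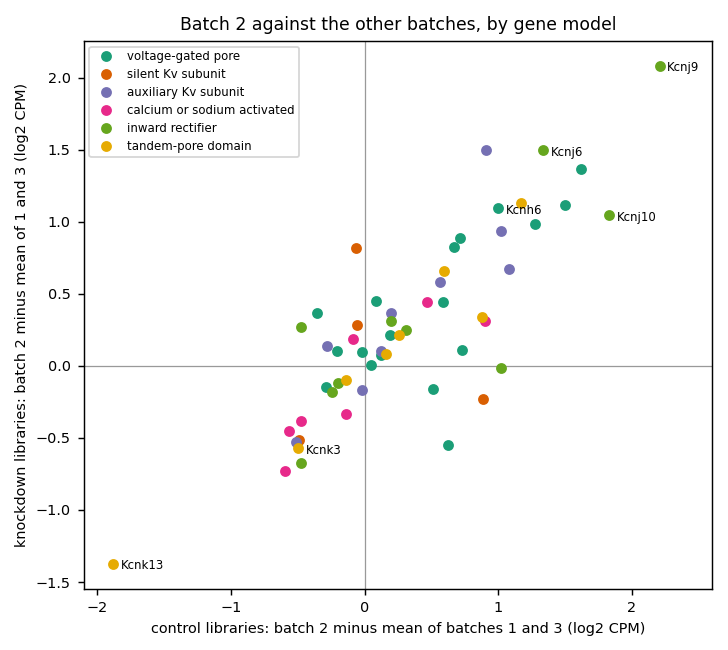
Difference of batch 2 from the mean of batches 1 and 3, in log2 CPM, among control libraries (horizontal axis) and among knockdown libraries (vertical axis), for 56 of the 60 tested gene models, coloured by role. Kcnrg, at -3.58 and 1.75, is left out to keep the scale, and the other 3 are not shown. Kcnj9 lies top right and Kcnk13 bottom left, so batch 2 differed for them in both groups.

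Proteins that bind or traffic potassium channels and carry other names were taken from a list of 26 genes, of which 25 matched and 22 were tested. None passed the test (0 of 22, background 1.71%). At an unadjusted p below 0.05, 3 of the 22 were higher and 2 lower, a share near the 23.9% of all genes. The median log2 fold change was -0.03 beside 0.00 over all genes. Lrrc55, a gamma subunit of BK channels, was at 23.3, 41.8 and 26.5 CPM in control and 12.5, 31.4 and 16.0 CPM in knockdown. It was lower in each batch while the groups overlap, at -0.67 (SE 0.10, adjusted p = 0.051), and it passed with the correction for transcript length (-0.78, adjusted p = 0.020). Dpp6, an auxiliary subunit of A-type channels, was at 24.7, 33.6 and 28.0 CPM and 31.7, 40.6 and 39.3 CPM, higher in each batch at 0.38 (SE 0.06, adjusted p = 0.056). Amigo1, an adhesion protein of Kv channel complexes, gave 0.21 (SE 0.05), the channel-regulating kinase Sgk1 0.23 (SE 0.07), and Vapb, which anchors Kv channels to the endoplasmic reticulum, -0.14 (SE 0.05). The sulfonylurea receptor Abcc8 was at 403 ± 72.9 CPM in control and 388 ± 38.8 CPM in knockdown (SD, n = 3), a difference of -0.05 (SE 0.08).

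No channel transcript passed the test for a changed share of its gene. Multiple transcripts were listed for 45 of the 62 models, 201 transcripts in all, and 117 transcripts of 34 models had enough reads to be tested. In limma's diffSplice, 0 of 117 had an adjusted p below 0.05, where 0.309% of all 31429 transcripts did, and the smallest was 0.26. At an unadjusted p below 0.05 there were 6, or 5.13%, against 9.01% of all transcripts. Shares of control and knockdown did not overlap for 7 of the 117 (5.98%), against 9.37% of all. The most abundant transcript was the same in both groups for 31 of the 45 models and in all 6 libraries for 18. It was a new splice combination in 21, held at least 90% in 4 and under 50% in 14. Among the 117, 40 had a 0 in 1 or more libraries, which can be a failed estimate where transcripts share most of their sequence.

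Kcnk16 had 2 transcripts, a known form of 5 exons and a new combination with 1 more exon and a start 397 bases upstream. The known form held 80.7%, 93.7% and 75.9% of the RPKM of the gene in control batches 1, 2 and 3 and 71.8%, 68.1% and 71.9% in knockdown. All knockdown shares lie below all control shares, but the difference did not pass (adjusted p = 0.58). The added form was at 4.19, 2.28 and 5.09 RPKM in control and 7.41, 14.7 and 7.09 RPKM in knockdown, while the known form was at 17.5, 33.8 and 16.0 RPKM and 18.9, 31.4 and 18.1 RPKM. Kcnh8, a low voltage-gated pore, was similar in form. Its main transcript held 90.5%, 78.9% and 83.1% in control and 55.9%, 64.2% and 72.4% in knockdown (adjusted p = 0.60), of a gene at about 0.3 RPKM.

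Kcnh2 was listed with transcripts from an upstream and a downstream start. The full form of 15 exons held 54.6%, 46.1% and 47.6% of its RPKM in control and 48.2%, 55.7% and 51.1% in knockdown, and the 2 forms of 11 exons with a downstream start held the rest. The groups overlap (adjusted p = 1.00 after rounding). Of Kcnk1, a form of 3060 bases held 24.5%, 14.5% and 12.2% in control and 8.67%, 4.29% and 14.96% in knockdown (adjusted p = 0.49). The main form of the first Kcnk6 locus held 91.3%, 84.4% and 88.2% and then 70.0%, 76.9% and 84.5% (adjusted p = 0.46), where the highest knockdown value lies just above the lowest control.

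For genes with many similar transcripts the shares varied widely within a group. The listed main form of Kcnip3, of 4 forms, held 58.9%, 0% and 53.4% of its RPKM in control and 81.1%, 24.1% and 21.1% in knockdown (adjusted p = 1.00 after rounding). The main form of Kcna2 held 89.3%, 69.6% and 95.1% and then 89.0%, 36.4% and 85.3% (adjusted p = 0.43), the low value being that of the knockdown of batch 2. Which of these swings are in the cells and which in the division of reads was not tested.

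**Figure D4:**
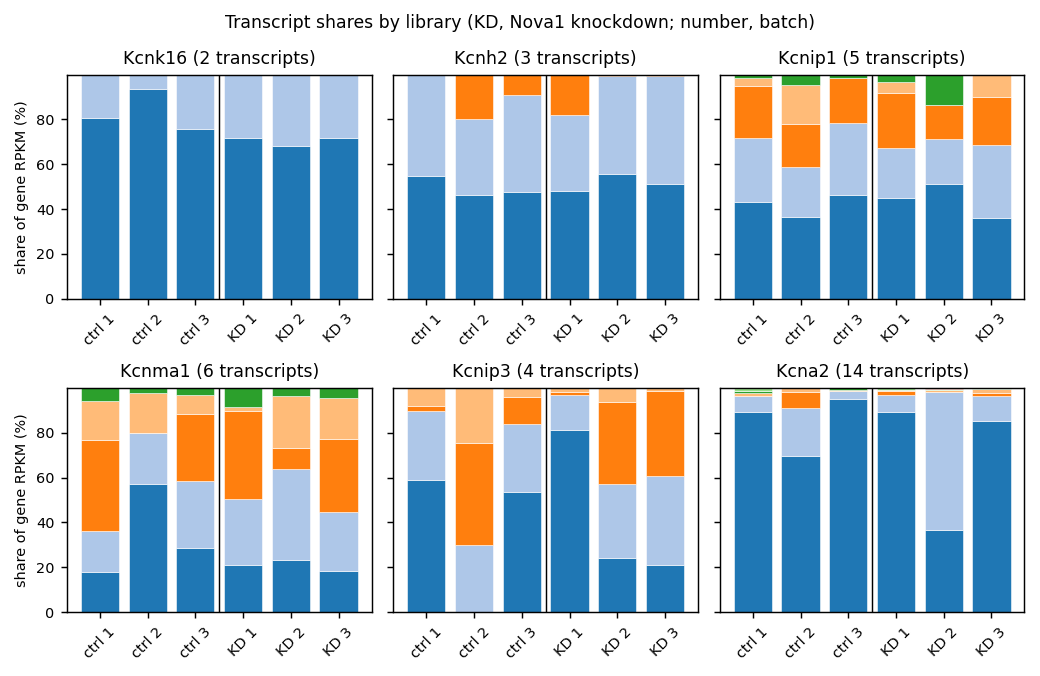
Transcript shares of 6 genes in percent of the RPKM of the gene, 1 bar per library (ctrl, control; KD, knockdown; the number is the batch). Each colour is a transcript within its gene. Kcnk16 has a larger upper segment in all knockdown libraries, the lowest segment of Kcnh2 stays between 46.1% and 55.7%, and that of Kcnip3 ranges from 0% to 81.1%.

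Cassette exons, which are either included between the same neighbours or skipped, numbered 28 in 12 channel genes. A version with other ends or other neighbours was counted as a further exon, here and over all genes, so the 28 are not all distinct exons. Each inclusion value leaves out transcripts that carry another version. In limma on the log2 ratio of including to skipping RPKM, 0 of 28 passed, as did 0 of 6039 exons of all genes, and the smallest adjusted p was 0.87. Only the 86 bp version of a Kcnj15 exon had an unadjusted p below 0.05, 3.57% of the exons against 4.75% of all. Groups did not overlap for 0 of 28, against 8.38%. In length, 21 of the 28 were a multiple of 3, so that inclusion keeps the reading frame where they are coding, and 6 were at most 51 bp. The median range of inclusion over the 6 libraries was 28.0 percentage points.

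Kcnma1, where channel splicing is known to set calcium sensitivity, had 5 of the 28 cassette exons as counted. Those of 183 bp and 174 bp are versions of the same exon, starting at 912653 and 912662 and both ending at 912835. Neither value is the inclusion of that exon as a whole. Its exon of 195 bp (chromosome 15, 1022096 to 1022290) was included at 91.2%, 91.0% and 94.8% in control and 88.8%, 93.5% and 92.9% in knockdown, and an exon of 174 bp at 6.90%, 5.33% and 4.57% and 10.97%, 4.52% and 5.55%. These were the 2 exons of the 28 whose range stayed under 10 points, but both lie near an end of the scale, where a range in points is small, and the inclusion of the 174 bp exon more than doubled from its lowest to its highest library. The other Kcnma1 exons varied more widely in points. Over the 6 libraries the exon of 183 bp was included at 18.7% to 58.2%, that of 99 bp at 1.78% to 23.3% and that of 81 bp at 10.5% to 26.7%, and the groups overlap for each. An exon of 9 bp in Kcnn2 (chromosome 18, 39120860 to 39120868) was included at 8.72%, 18.2% and 17.3% in control and 23.8%, 18.6% and 12.1% in knockdown, and the groups overlap. In Kcnab2, a 42 bp exon was included at 45.1%, 53.6% and 36.4% and 47.2%, 43.2% and 48.6%. A 33 bp exon of Kcnip1, a gene whose long and short forms differ by such an insert, was at 2.99%, 10.4% and 2.47% and 6.76%, 28.1% and 0%.

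Other channel exons swung between extremes within a group. A 54 bp exon of Kcnip2 was included at 29.3%, 73.5% and 42.2% in control libraries and 3.49%, 100% and 97.3% in knockdown (adjusted p = 0.91). The 86 bp exon of Kcnj15 was at 63.8%, 95.8% and 78.3% and then 34.1%, 100% and 57.2%. Its groups overlap through the knockdown of batch 2 (adjusted p = 0.87). A 98 bp version of this exon, with the same start, was at 57.2%, 87.5% and 91.8% in control and 83.2%, 100% and 53.5% in knockdown. Its log2 difference was 0.37 (adjusted p = 0.97 in limma). As the 2 versions were counted apart, neither value is the inclusion of the Kcnj15 exon as a whole.

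**Figure D5:**
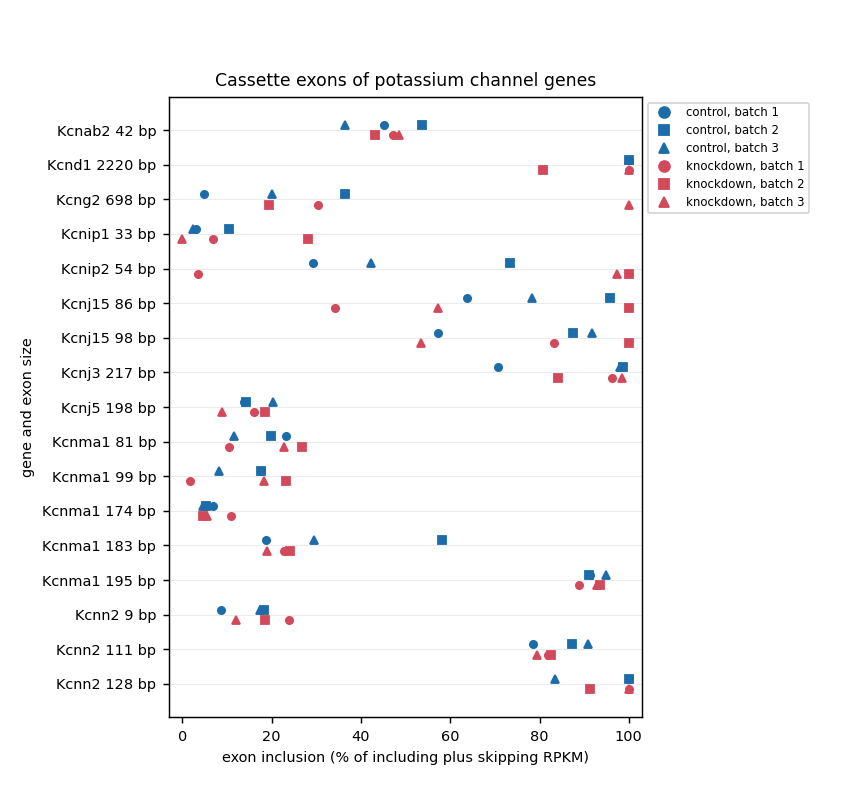
Inclusion of 17 of the 28 cassette exons in percent of including plus skipping RPKM, 1 point per library (blue, control; red, knockdown; shape, batch), labelled by gene and exon size. Points of Kcnma1 195 bp and 174 bp lie close together on this axis, and those of Kcnip2 54 bp are spread across the axis in both groups.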

How the data were processed

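Poly(A) RNA of 6 libraries (3 batches, control and knockdown) was sequenced on an Illumina instrument, per the labels' protocols, and aligned with TopHat to Rnor_5.0, per the submitters' processing notes. For each transcript of a merged assembly the authors deposited 3 values as text attributes of an annotation file: estimated reads (counts that need not be whole), length and RPKM. How reads were divided among transcripts, and whether by strand, is not given in the sources used here. Titles gave each library's group and its number, which is the batch.

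Estimated counts, which hold fractions, were summed by gene model. Library sizes were scaled by TMM, with 30% of M and 5% of A values trimmed, and the reads were tested with voom in limma 3.58.1 (R 4.3.3) with batch and group as terms (2 residual degrees of freedom for each gene). A gene was tested if 3 libraries reached what 10 reads are at median depth and all libraries together held 15 reads. P-values were adjusted over all 15983 genes (Benjamini-Hochberg, threshold 0.05). Levels are deposited RPKM summed over transcripts, CPM are scaled reads, and fold changes are from reads. Transcript shares were tested with diffSplice in limma, and cassette exons with limma on log2 ratios of RPKM with 0.1 added, where both forms together averaged at least 0.5 RPKM. Scripts were tested on simulated data.

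Batch pairs the libraries by the labels. As a check, the correlation of their deviations from group means was 0.38 in batch 1, 0.72 in batch 2 and 0.555 in batch 3. Named genes are the 3 highest of each role, the 5 higher and 5 lower with the smallest unadjusted p, any called gene and a list of reference members. Members and lists were chosen with earlier results of these data known. Alternatives were no batch term, leaving out each batch, other scaling, filters and pseudocounts, RPKM in place of reads and a correction for transcript length. Some genes this rule takes are not shown. Sequences are from RefSeq on GRCr8.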

Additional observations from a re-analysis of the deposited data

How the results depend on the processing

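No channel gene passed in any of 11 of the 12 alternatives of the gene-level test. Several of these could hardly give a call, and their 0 says little about channel genes. Of all 15983 genes, 0 passed without the replicate block, without batch 2 and in both fits on RPKM, and 4 passed without batch 1. With the replicate block and a correction for transcript length 2 of 60 passed, Kcnk16 among them, and 1 of 22 channel partners (Lrrc55). In that setting 604 of all 15983 genes passed, against 274 in the main test. The cause was not tested. Without the replicate block, where batch no longer pairs the libraries, 0 channel genes passed (1 of 60 at an unadjusted p below 0.05, and 3.26% of all genes). Because 0 of all genes passed there, against 274 with the block, this cannot show whether channel calls depend on the block. Transcript shares and cassette exons gave 0 under every alternative run. In the main tests only 0.309% of all transcripts and 0 of 6039 exons of all genes passed. Calls over all genes were not counted for these alternatives, so their 0 says little about channel genes. The median log2 fold change of the channel genes was 0.092 without the block, 0.087 with library totals alone (where that of all genes was 0.06) and 0.10 with the filter 5 times stricter, and leaving out 1 batch gave -0.025 to 0.12. Nova1 did not pass without the block (-1.12), with log2(RPKM + 1) (-0.54) or log2(RPKM + 0.1) (-0.73), nor without batch 1 or batch 2 (range -1.25 to -0.98 over the batches left out).

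Of 453 values of 38 named gene models under the alternatives, 416 kept sign and side of the threshold, 36 in 14 genes turned sign and 1 passed (Kcnk16). Without the block the values that turned were 0.032 for Kcnip2 (XLOC_001729), 0.14 for Kcnmb1, -0.0044 for Kcnd1, 0.0085 for Kcnc2 and 0.057 for Kcnq1. With library totals alone they were 0.026 for Kcnip2, 0.045 for Kcnmb1, 0.046 for Kcnj6, 0.0034 for Kcnk1 and 0.046 for Kcnc2. On log2(RPKM + 1) they were 0.000305 for Kcnip3, -0.21 for Kcnn3, 0.031 for Kcnn4, -0.073 for Kcnj15, 0.057 for Kcnk1 and -0.0027 for Kcnd1. On log2(RPKM + 0.1) they were -0.23 for Kcnn3, 0.13 for Kcnn4, 0.0095 for Kcnmb1, -0.12 for Kcnj15, 0.059 for Kcnk1 and -0.0055 for Kcnd1. With the length correction they were -0.10 for Kcnn3, 0.062 for Kcnmb1 and -0.062 for Kcnd1. Leaving out 1 batch gave ranges across 0 for Kcnip1 (-0.019 to 0.087), Kcnip2 (-0.11 to 0.13), Kcnn3 (-0.13 to 0.13), Kcnn1 (-0.37 to 0.094), Kcnn4 (-0.56 to 0.29), Kcnmb1 (-0.24 to 0.42), Kcnj6 (-0.074 to 0.054), Kcng4 (-0.043 to 0.56), Kcnd1 (-0.030 to 0.024), Kcnc2 (-0.068 to 0.055) and Kcnq1 (-0.18 to 0.054). Low genes rest on few reads, at most 28 in a library for Kcnmb1, so small differences among them were not detectable at this depth.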
